A study of Mus musculus with 8 samples.

Results

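Them5 and 7 related acyl-CoA thioesterase genes (Them4, Acot1, Acot2, Acot7, Acot8, Acot9 and Acot13) were followed across 4 groups of sorted mouse mammary epithelial cells, as 8 of the 18194 genes with a value. A probe set belonged to these genes when the array's annotation gave it 1 gene symbol and that symbol was one of the 8, which held for 12 of 45101 probe sets. Another 2 probe sets list a member among several genes and were not used. Every Them5 probe set is described, and each other gene is led by the probe set whose mean over the 8 arrays was highest. All 8 genes lay above the filter on low signal and were among the 14598 genes tested. Them5 was selected on its difference between genotypes on these same arrays, and the other 7 were added as its relatives. The values of Them5 are therefore a description and carry no test.

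Glands of wildtype (WT) mice were compared with those of germline C/EBPb-/- knockout (KO) mice, prepared as 2 paired sets with 10 mice per group. C/EBPb, encoded by Cebpb, is a transcription factor of mammary epithelium, and the series asks which pathways it regulates in stem and progenitor cells. Lineage-negative (LIN-) cells were sorted by FACS into a LIN-CD24+CD29hi gate (CD29hi below) and a LIN-CD24hiCD29lo gate (CD29lo below). Each gate of each genotype was measured on 2 Affymetrix arrays, labelled biological replicates 1 and 2. Since the knockout was germline, all cells of those mice carried it. The strain, the age of the mice and the deleted part of Cebpb were not given in the sources. Each array holds pooled glands, so p-values measure the spread between pools and not between single mice. In such bulk samples fewer cells of a type and less RNA per cell cannot be told apart.

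Acyl-CoA thioesterases cut the bond between a fatty acid and coenzyme A, which reverses the activation made by acyl-CoA synthetases and sets how much acyl-CoA is left for oxidation, lipid synthesis and membrane remodelling. Acot1 and Acot2 belong to a family built on an alpha/beta hydrolase fold, and Them4, Them5, Acot7, Acot8, Acot9 and Acot13 to the hotdog-fold family. Them5 is a mitochondrial enzyme for long-chain acyl-CoA that has been linked to the remodelling of cardiolipin, the signature phospholipid of the inner mitochondrial membrane. Them4, also called CTMP, is its close relative and was first described as a protein that binds the kinase Akt.

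Them5 and Them4 are direct neighbours on chromosome 3, and Acot2 and Acot1 are direct neighbours on chromosome 12, in the gene order of RefSeq. The 250 bases before the annotated start of these 4 genes are shown because C/EBPb binds DNA and because the paired neighbours had unlike values in the results. They are from RefSeq in build GRCm38.p6, all on the plus strand, at chr3:94341849-94342098 for Them5, chr3:94309882-94310131 for Them4, chr12:84009252-84009501 for Acot1 and chr12:83987611-83987860 for Acot2. Capitals mark matches to a C/EBP core, written TTGCNNAA, on either strand.
Them5: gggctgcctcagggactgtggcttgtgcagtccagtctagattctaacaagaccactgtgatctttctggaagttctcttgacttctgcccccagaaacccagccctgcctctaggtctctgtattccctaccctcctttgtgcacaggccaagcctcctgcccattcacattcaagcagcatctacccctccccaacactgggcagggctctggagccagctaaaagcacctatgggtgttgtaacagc
Them4: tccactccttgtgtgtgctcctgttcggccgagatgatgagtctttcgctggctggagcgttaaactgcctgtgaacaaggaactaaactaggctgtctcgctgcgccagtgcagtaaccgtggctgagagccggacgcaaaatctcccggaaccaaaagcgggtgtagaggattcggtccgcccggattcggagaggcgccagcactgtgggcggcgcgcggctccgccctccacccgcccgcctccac
Acot1: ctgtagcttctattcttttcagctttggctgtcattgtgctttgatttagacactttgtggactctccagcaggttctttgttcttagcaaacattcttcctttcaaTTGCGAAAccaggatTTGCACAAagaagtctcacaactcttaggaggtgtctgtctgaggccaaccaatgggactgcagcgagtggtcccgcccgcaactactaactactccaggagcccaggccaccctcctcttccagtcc
Acot2: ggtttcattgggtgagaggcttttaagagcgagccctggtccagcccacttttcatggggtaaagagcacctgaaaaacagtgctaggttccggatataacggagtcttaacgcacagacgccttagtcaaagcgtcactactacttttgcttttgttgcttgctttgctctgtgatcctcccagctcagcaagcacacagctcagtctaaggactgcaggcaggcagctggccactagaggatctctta

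A promoter window was found for 7 of the 8 genes, all but Acot13. Acot1 alone among those 7 held matches to TTGCNNAA: TTGCGAAA at 143 to 136 bases before its start and TTGCACAA at 128 to 121. Windows of the same length held this core in 9.57% of 32841 cases, so a match is common. The full palindrome TTGCGCAA, a special case of the core, was in 0.164% of windows and in none of the 7. CCAAT, read on both strands as CCAAT or ATTGG, was present in 33.9% of windows and in those of Acot1, Acot2, Acot8 and Acot9. TATAAA, searched on both strands, was in 12.4% of windows and, of the 7, in that of Acot9. A match describes these letters and is no evidence of binding, and the absence of one in Them5 says only that the letters are not in this window.

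Cebpb checked the genotype labels. It gave 11.95 and 12.25 (WT) against 8.6 and 9.38 (KO) in CD29hi, and 11.83 and 12.18 (WT) against 9.23 and 8.89 (KO) in CD29lo (log2 signal, as are all levels below). The fall was -3.11 ± 0.274 in CD29hi (log2 difference ± SE, limma with Benjamini-Hochberg adjustment, adjusted p = 0.0177), and it was -2.94 ± 0.274 in CD29lo (adjusted p = 0.0271). Averaged over gates it was -3.03 ± 0.194 (adjusted p = 0.00277), a call that held without any single array (largest adjusted p = 0.0439), whereas each call within a gate ended without some single arrays (largest adjusted p = 0.52 in CD29hi and 0.494 in CD29lo). Within a gate the call also ended without a trend of the variance (adjusted p = 0.213 and 0.256) and with the mean of the Cebpb probe sets (-2.03 and -2.20, adjusted p = 0.226 and 0.241), and in CD29lo with only the arrays compared (adjusted p = 0.0925). Signal stayed above background on all 8 arrays, and whether the probe set lies in the deleted part is not known. Background was set on each array from bacterial control probe sets and lay between 3.84 and 4.41. Array medians lay between 5.45 and 5.67, and replicates of 1 group correlated at 0.931 to 0.954.
The summed signal of 8 basal markers was 14.91 to 15.3 in the CD29hi arrays and 11.84 to 12.03 in the CD29lo arrays. That of 7 luminal markers was 13.84 to 13.94 and 14.78 to 14.94. A sum over 8 fibroblast markers was also apart between gates, at 8.21 to 10.48 in CD29hi and 11.58 to 14.85 in CD29lo. KO CD29lo replicate 1 and WT CD29lo replicate 2 stood apart from their own replicates on the second principal component.

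Them5 was detected in wildtype cells of both gates and was not above background in the knockout. On its leading probe set (1453801_at) WT CD29hi read 8.02 and 8.54 and WT CD29lo 5.54 and 5.34. KO CD29hi read 1.54 and 2.19, and KO CD29lo 2.68 and 3.0. Each WT array was above background and each KO array below it, so the KO values have no order among themselves. The group means were 8.28 ± 0.368 in WT CD29hi, 5.44 ± 0.141 in WT CD29lo, 1.86 ± 0.46 in KO CD29hi and 2.84 ± 0.226 in KO CD29lo (SD, n = 2 each). Measured against the background of the KO arrays, WT was at least 20.9-fold higher in CD29hi and at least 2.22-fold higher in CD29lo. These values chose the gene and are given without a test.

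Within the wildtype, Them5 also differed by gate. CD29hi was above CD29lo by 2.84 on the log2 scale, a 7.16-fold difference between measured levels, and the arrays of the 2 gates did not overlap. Both gates came from the same fit and arrays that chose the gene, and this difference has no test either. The order of the levels was therefore WT CD29hi, then WT CD29lo, then both KO groups together below background.

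A further Them5 probe set, 1431211_s_at, had the same order. Its values were 6.53 and 7.90 (WT) against 3.13 and 1.28 (KO) in CD29hi, and 4.18 and 4.77 (WT) against 2.44 and 2.69 (KO) in CD29lo. All 4 WT arrays were again above background and no KO array was. WT exceeded the KO background at least 9.99-fold in CD29hi and at least 1.14-fold in CD29lo, and in WT the CD29hi gate was 6.68-fold above CD29lo. In CD29lo the WT signal of this probe set thus lay close to background.
The third probe set, 1429354_at, gave no usable signal. Its values were 2.23 and 3.19 (WT) and 1.71 and 0.65 (KO) in CD29hi, and 3.75 and 2.36 (WT) and 2.50 and 3.24 (KO) in CD29lo. No array was above background, it missed the filter, and no fold is given.

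**Figure D1:**
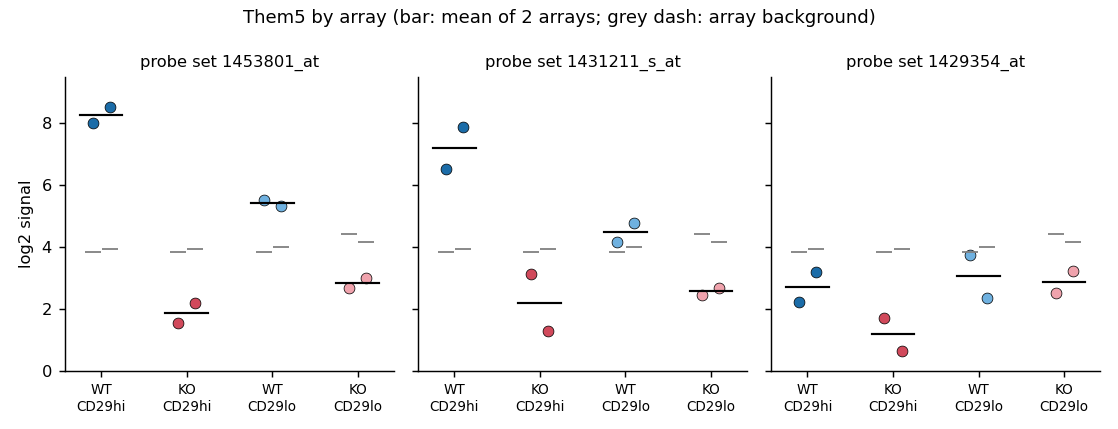
Log2 signal of the 3 Them5 probe sets on each of the 8 arrays, by genotype and gate, with bars at the mean of 2 arrays and grey dashes at each array's background. On 1453801_at the WT CD29hi arrays sit at 8.02 and 8.54, the WT CD29lo arrays at 5.54 and 5.34, and all KO arrays under the dashes, and 1429354_at stays under the dashes throughout.

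None of the other 7 genes passed the test between genotypes in either gate. In CD29hi the differences KO minus WT ran from -0.49 for Acot1 to 0.32 for Them4, with standard errors of 0.183 to 0.398, and the smallest adjusted p was 0.739 (limma, Benjamini-Hochberg over 14598 genes). In CD29lo they ran from -0.48 for Acot2 to 0.29 for Acot13, with a smallest adjusted p of 0.809. The background is as sparse, with 0.0137% of all genes passing in each gate, and 0.0685% when the gates were averaged, so a count of 0 among 7 genes is near it. At an unadjusted p under 0.05 the count among the 7 was also 0 in each of these contrasts, against 7.84% of all genes in CD29hi, 6.68% in CD29lo and 9.27% averaged. The median difference of the 7 was -0.04 in CD29hi and -0.01 in CD29lo, beside -0.02 and -0.06 over all genes. No gene of the 7 passed the interaction of genotype and gate, nor did any of the 14598 (0.0%), and 4.95% of all genes had an unadjusted p under 0.05 there.

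Among the 8 leading probe sets, WT and KO arrays were fully separate across both gates for Them5 alone, where the rule used that contrast. Such a separation of 4 arrays from 4 occurred in 3.24% of all genes tested.

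Them4, the neighbour of Them5, was detected in all 4 groups. Its leading probe set (1427055_at) read 9.62 and 8.96 (WT) and 9.42 and 9.81 (KO) in CD29hi, and 9.11 and 9.23 (WT) and 9.56 and 8.49 (KO) in CD29lo. The genotypes overlapped in each gate and the gates in each genotype, with the widest spread in KO CD29lo. In CD29hi KO minus WT was 0.32 ± 0.379 (limma adjusted p = 0.92), while CD29lo gave -0.15 ± 0.379 (adjusted p = 0.957). Values that miss the threshold do not show equal levels.
The weaker Them4 probe set (1431140_at) was above background on 3 of 8 arrays. It read 3.48 and 3.83 (WT) and 4.57 and 4.81 (KO) in CD29hi, and 4.70 and 3.72 (WT) and 4.16 and 4.02 (KO) in CD29lo. The KO CD29hi arrays were above the WT CD29hi arrays by 1.03 ± 0.523, which did not pass in the fit over all probe sets (limma adjusted p = 0.776). No other neighbour of this pair within 3 genes on either side had a single-gene probe set that was analysed here.

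**Figure D2:**
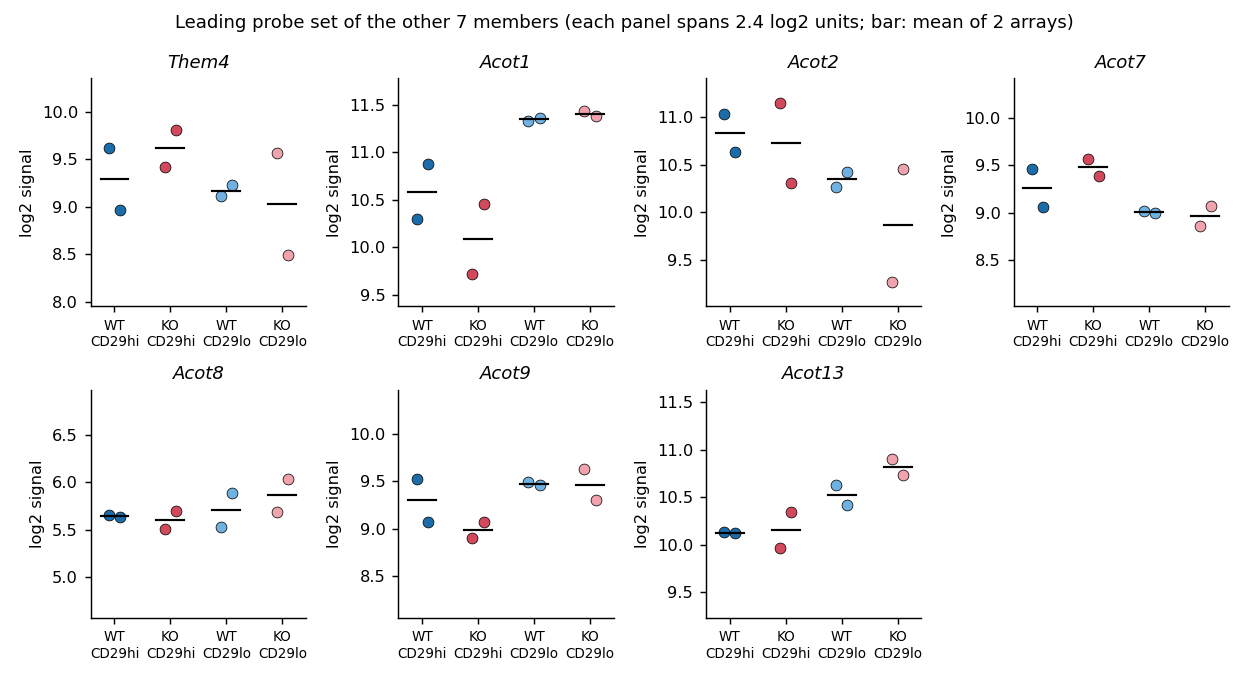
Log2 signal of the leading probe set of the other 7 genes on each of the 8 arrays, with bars at the mean of 2 arrays. Each panel spans the same 2.4 log2 units but starts at its own level. WT and KO points mix within each gate for most genes, while the CD29lo points of Acot1 (11.33 to 11.43) and Acot13 (10.42 to 10.90) lie above all their CD29hi points.

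Acot1 and Acot13 were lower in CD29hi than in CD29lo. Averaged over genotypes, 2 of the 7 genes passed, both lower in CD29hi, beside 10.8% of all genes lower and 22.9% called in either direction. The median gate difference was -0.16 over the 7 genes and 0.01 over all genes. At an unadjusted p under 0.05 there were 4 of the 7, beside 35.6% of all genes. The arrays of both gates did not overlap for these 2 genes, as for 25.3% of all genes, so separation by gate is common in these data.

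Acot1 is the cytosolic long-chain enzyme of the alpha/beta hydrolase family and a known target of the fatty acid receptor PPARalpha. In CD29hi it read 10.29 and 10.87 in WT and 9.72 and 10.45 in KO. In CD29lo it read 11.33 and 11.36 in WT and 11.43 and 11.38 in KO. All 4 CD29lo arrays lay within 0.10 of each other and above every CD29hi array, whereas the CD29hi arrays were spread. CD29hi minus CD29lo was -1.04 ± 0.184 (limma adjusted p = 0.00496), a 2.06-fold difference. Whether this probe set also matches the near-identical neighbour Acot2 was not tested, so the difference is that of the probe set. In KO cells alone it was -1.32 ± 0.260 (adjusted p = 0.0128), where 2 of the 7 genes passed, both lower, beside 6.66% of all genes lower and 14.1% called. In WT cells alone it was -0.77 ± 0.260 (adjusted p = 0.125), where none of the 7 passed beside 8.19% of all genes. The difference between both gate contrasts is the interaction of -0.56 ± 0.368, which did not pass (adjusted p = 0.961).
The call in KO cells ended without KO CD29hi replicate 1 (adjusted p = 0.077) and without KO CD29lo replicate 1 (adjusted p = 0.052). The averaged call held without any single array (largest adjusted p = 0.0199).

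Acot13, also called Them2, is a hotdog-fold thioesterase found at mitochondria that binds the phosphatidylcholine transfer protein. It read 10.13 and 10.12 (WT) and 9.96 and 10.34 (KO) in CD29hi, and 10.63 and 10.42 (WT) and 10.90 and 10.73 (KO) in CD29lo. CD29hi minus CD29lo was -0.53 ± 0.129 (limma adjusted p = 0.0202), a 1.45-fold difference, and all CD29lo arrays were above all CD29hi arrays. In KO cells the difference was -0.67 ± 0.183 (adjusted p = 0.0463), and in WT cells -0.40 ± 0.183 (adjusted p = 0.249). The call in KO ended whichever of the 8 arrays was left out (adjusted p = 0.0575 to 0.274).
The averaged call of Acot13 was close to the threshold. Leaving out either WT CD29hi array ended it (adjusted p = 0.053 both times), as did leaving out replicate 1 of KO CD29hi (adjusted p = 0.078), of WT CD29lo (0.073) or of KO CD29lo (0.056).

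Some marker sums of other cell types were also higher in CD29lo, while those of adipocytes and endothelium overlapped between gates. The fibroblast sum of KO CD29lo replicate 1 was 11.58 and that of replicate 2 was 14.47, against at most 10.48 in CD29hi. Acot1 read 11.43 and 11.38 on these 2 KO CD29lo arrays and Acot13 10.90 and 10.73. All 8 fibroblast markers were above background on both arrays of each CD29lo group.
The sum of 7 markers of stratified keratinocytes and sebaceous cells was 10.59 to 11.26 in CD29hi and 11.67 to 11.98 in CD29lo, with 5 of the 7 above background on all arrays. Of these 7 only Sbsn was apart between gates, at 9.05 to 9.92 in CD29hi and 11.04 to 11.55 in CD29lo. Krt10 read 9.21 to 9.77 in CD29hi and 9.05 to 9.86 in CD29lo, and Krt6a 7.99 to 8.95 and 6.71 to 8.61. The sum of 6 blood cell markers was 5.43 to 7.09 in CD29hi and 7.99 to 8.82 in CD29lo. Cd14 was above background on 7 arrays, Lyz2 on 5, Ptprc on 3, Adgre1 on 1, and Cd3e and Itgam on none. Cd14 read 3.56 to 6.64 in CD29hi and 7.65 to 8.34 in CD29lo, and it was the only one of the 6 apart between gates. Adgre1 read 3.46 to 4.05 in CD29hi and 2.67 to 4.13 in CD29lo, and Lyz2 3.72 to 4.94 and 3.72 to 6.70.
The sum of 6 adipocyte markers was 8.53 to 8.87 in CD29hi and 8.86 to 9.40 in CD29lo, which overlap narrowly. Pnpla2 and Lipe were above background on all arrays, Retn on 7, Lep on 3, and Adipoq and Cidec on 1 each. Retn, which encodes the adipocyte hormone resistin, read 3.78 to 4.72 in CD29hi and 4.98 to 6.04 in CD29lo. It was the only one of the 6 apart between gates. Lep, Adipoq and Cidec had their highest values in CD29hi. Lep read 3.26 to 5.56 in CD29hi and 2.90 to 4.42 in CD29lo, Adipoq 3.36 to 4.51 and 2.58 to 4.27, and Cidec 2.32 to 4.71 and 1.88 to 3.02. The sum of 6 endothelial markers overlapped between gates. The part of any other cell type in the gate differences of Acot1 and Acot13 was not tested.

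Acot2, the mitochondrial matrix counterpart of Acot1, gave opposite directions on its 2 single-gene probe sets. The leading one (1439478_at) read 11.04 and 10.64 (WT) and 11.15 and 10.31 (KO) in CD29hi, and 10.27 and 10.43 (WT) and 9.27 and 10.46 (KO) in CD29lo. The gates overlapped, and CD29hi minus CD29lo was 0.68 ± 0.282 (limma adjusted p = 0.124). KO CD29lo replicate 1 was the lowest array, more than 1 log2 unit under its replicate.
The other (1422996_at) read 7.64 and 7.73 (WT) and 7.64 and 8.02 (KO) in CD29hi, and 8.43 and 8.91 (WT) and 8.49 and 8.67 (KO) in CD29lo. Here the gates did not overlap, as for 22.1% of all probe sets tested. The difference was -0.87 ± 0.210 in the fit over 33791 probe sets (limma adjusted p = 0.0218), where 8.9% of all probe sets were lower and 18.4% were called. Acot1 and Acot2 are near-identical neighbours, and the probe sequences were not analysed here. Which of the genes each probe set measures is therefore uncertain, and with it the gate differences of both Acot1 and Acot2. Averaging both Acot2 probe sets turned the gate difference to -0.10.
Neither probe set passed between genotypes. For CD29hi the leading one gave -0.11 ± 0.398 (limma adjusted p = 0.983) and for CD29lo -0.48 ± 0.398 (adjusted p = 0.859), and 1422996_at gave 0.14 ± 0.296 and -0.09 ± 0.296 (adjusted p = 0.974 and 0.975).

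**Figure D3:**
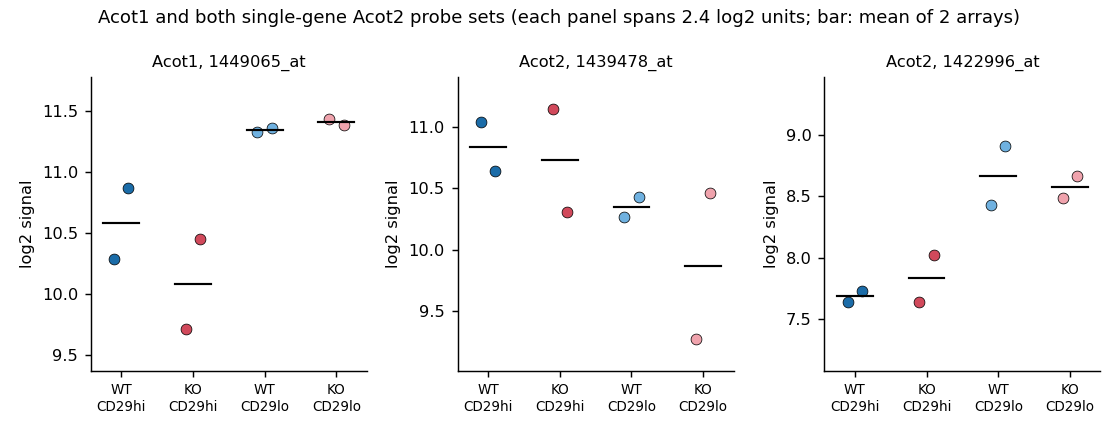
Log2 signal of the Acot1 probe set and both single-gene Acot2 probe sets on each of the 8 arrays, with bars at the mean of 2 arrays and panels of equal span. Acot1 and Acot2 1422996_at are higher on every CD29lo array than on any CD29hi array, while Acot2 1439478_at overlaps between gates, with KO CD29lo replicate 1 lowest at 9.27.

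The remaining hotdog-fold genes did not pass in any contrast. Acot7, a cytosolic enzyme known for its abundance in brain, read 9.46 and 9.06 (WT) and 9.57 and 9.39 (KO) in CD29hi, and 9.02 and 9.0 (WT) and 8.86 and 9.07 (KO) in CD29lo. Its gate difference of 0.38 ± 0.165 did not pass (limma adjusted p = 0.137), nor did that in KO cells, 0.52 ± 0.234 (adjusted p = 0.187). The gates overlapped narrowly, with 1 KO CD29lo array (9.07) above the lowest CD29hi array (9.06, WT).
Acot9, a mitochondrial enzyme, read 9.53 and 9.07 (WT) and 8.90 and 9.07 (KO) in CD29hi, and 9.49 and 9.46 (WT) and 9.63 and 9.30 (KO) in CD29lo. The gates overlapped through 1 WT CD29hi array, and the gate difference was -0.33 ± 0.172 (limma adjusted p = 0.213). In KO cells alone the gate difference was -0.48 ± 0.243 (adjusted p = 0.234). KO minus WT in CD29hi was -0.31 ± 0.243 (adjusted p = 0.854).
Acot8, the peroxisomal thioesterase of broad substrate range, stayed within 5.51 to 6.04 on all 8 arrays. It read 5.66 and 5.64 (WT) and 5.51 and 5.70 (KO) in CD29hi, and 5.53 and 5.89 (WT) and 5.69 and 6.04 (KO) in CD29lo. The genotypes overlapped in each gate and the gates in each genotype, and the gate difference was -0.16 ± 0.262 (limma adjusted p = 0.711).

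**Figure D4:**
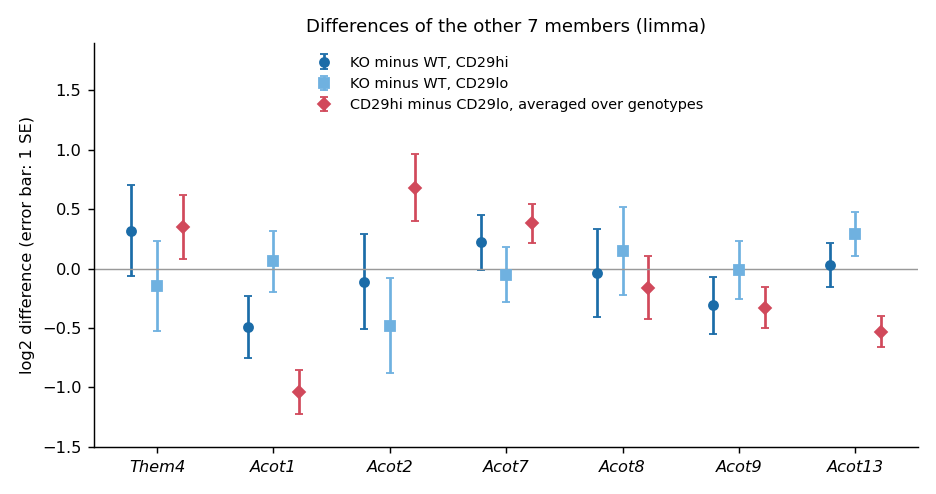
Log2 differences with 1 SE from limma for the other 7 genes: KO minus WT in CD29hi (circles), KO minus WT in CD29lo (squares) and CD29hi minus CD29lo averaged over genotypes (diamonds). The genotype points lie between -0.49 and 0.32, and the gate points of Acot1 (-1.04) and Acot13 (-0.53) are the 2 that passed the test.

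Genes with a pattern like that of Them5 were ranked by Pearson correlation with its leading probe set over the 8 arrays, as a description. The highest were Kif20b (0.973), Chil1 (0.96), Ckap2 (0.958), Dmap1 (0.953) and Narf (0.952). Kif20b encodes a mitotic kinesin, Ckap2 a spindle protein and Chil1 a secreted chitinase-like protein. Wildtype Kif20b signal was 6.99 and 7.69 in CD29hi and 6.0 and 6.01 in CD29lo, against 2.91 to 3.76 on the KO arrays, where it was below background. Chil1 was above background on all arrays, at 9.54 and 10.84 (WT) against 6.44 and 7.62 (KO) in CD29hi and 8.84 and 8.94 (WT) against 7.15 and 7.01 (KO) in CD29lo. The 5 lowest were Thyn1 (-0.962), Klrc1 (-0.954), Patj (-0.951), Egfbp2 (-0.949) and Zfhx4 (-0.949).
The 8 points are 4 groups of 2 arrays that share a sort and a genotype, and the ranking is over 14598 genes. The Them5 values include 4 arrays below background, and the gene was selected on its genotype difference, so the ranking favours genes that differ between genotypes. The other 7 thioesterases ranged from -0.291 (Acot13) to 0.281 (Acot2), with Them4 at -0.161.

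Around the thioesterases, 9 lists of 135 genes covered acyl-CoA handling, oxidation, cardiolipin and Akt. Of these genes 123 were on the array and 112 were tested. No gene of the lists passed between genotypes in CD29hi, in CD29lo or averaged (limma), beside the 0.0137%, 0.0137% and 0.0685% over all genes. At an unadjusted p under 0.05 the counts were 19, 6 and 17 of 112, beside 7.84%, 6.68% and 9.27% of all genes. In CD29hi and averaged the share of the lists was thus larger than that of all genes, and in CD29lo smaller. No test was run on the lists. The median difference was -0.22 in CD29hi and -0.10 in CD29lo, beside -0.02 and -0.06 over all genes. Between gates 24 passed, 13 higher and 11 lower in CD29hi. Over all genes 22.9% passed between gates and 10.8% were lower in CD29hi, shares that also stand beside the counts of each list.

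Of the 12 other thioesterases tested, such as the lysosomal palmitoyl-protein thioesterase Ppt1 and the depalmitoylating enzyme Lypla2, none passed between genotypes, with medians of -0.13 in CD29hi and -0.21 in CD29lo. In CD29hi Ppt1 read 8.71 and 8.98 (WT) and 8.12 and 8.25 (KO), a difference of -0.66 ± 0.264 (limma adjusted p = 0.602). Averaged over gates, Lypla2 differed by -0.22 ± 0.130 and Hibch, a mitochondrial enzyme of valine breakdown, by -0.16 ± 0.316. The 1 called between gates was Fasn, fatty acid synthase, which carries a thioesterase domain and was higher in CD29hi by 1.22 ± 0.283 (adjusted p = 0.0166). It was named after its value was seen.

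The 12 acyl-CoA synthetases, which make the substrate of the thioesterases, had a median of -0.37 in CD29hi and -0.27 in CD29lo. Acsl4, which prefers arachidonate, read 10.30 and 10.81 in WT CD29hi against 9.23 and 9.73 in KO CD29hi, and 10.35 and 10.54 in WT CD29lo against 9.71 and 9.33 in KO CD29lo. All WT arrays of Acsl4 were above all its KO arrays, a separation found in 3.24% of all genes tested. Acsl4 was not singular in this. In other lists Plin2, Acaa1a, Hsd17b4, Cpt2, Hacl1, Taz, Acox2 and Mapkap1 were separate in the same direction. The averaged difference of -1.0 ± 0.184 did not pass (limma adjusted p = 0.18). Acsl3 and Acsl5 differed averaged by 0.25 and 0.15. Between gates 3 of the 12 passed, all lower in CD29hi, beside 10.8% of all genes. They were Acsbg1, Acss1 and Slc27a1, named after their values were seen. Acsbg1 had the smallest adjusted p of all lists between gates (-4.15 ± 0.322, limma adjusted p = 9.79e-05). Its CD29hi values of 2.15 to 3.17 were below background, so this is no measured fold.

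The 15 genes of acyl-CoA binding and transport had medians of 0.01 in CD29hi and -0.16 in CD29lo, and 2 were higher in CD29hi than in CD29lo. Dbi, the acyl-CoA binding protein, was between 11.70 and 12.54 on every array. Its averaged genotype difference was 0.05 ± 0.134 (limma adjusted p = 0.937), and Abcd3, a peroxisomal transporter, had -0.12 ± 0.0934 (adjusted p = 0.747). Fabp4, a fatty acid carrier, had -0.14 ± 0.388 (adjusted p = 0.933).
The carnitine shuttle, which carries acyl groups into mitochondria, had medians of -0.49 in CD29hi and -0.10 in CD29lo over 7 genes. Cpt1a, its rate-setting enzyme, was lower in CD29hi than in CD29lo by 0.69 on the log2 scale (-0.69 ± 0.138, limma adjusted p = 0.00894), and read 9.78 and 10.15 in WT CD29hi against 9.22 and 9.33 in KO CD29hi. That genotype difference, also -0.69, did not pass (adjusted p = 0.407). Cpt2 and the carrier Slc25a20 had averaged genotype differences of -0.54 ± 0.215 (adjusted p = 0.497) and -0.06 ± 0.214 (adjusted p = 0.954). The other call between gates was Slc22a5, named after its value was seen, with CD29hi minus CD29lo at -2.01 ± 0.242 (limma adjusted p = 0.000743). In KO cells alone this difference was -3.32 ± 0.342 (adjusted p = 0.000861), and in WT cells -0.70 ± 0.342 (adjusted p = 0.278). KO minus WT for Slc22a5 in CD29hi was -2.09 ± 0.342, which did not pass (adjusted p = 0.169).

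Mitochondrial beta-oxidation, with 20 genes tested, had medians of -0.37 in CD29hi and -0.06 in CD29lo. Between gates 5 were higher and 2 lower in CD29hi, beside 22.9% of all genes called. Hadha, the trifunctional protein's alpha subunit, was higher in CD29hi by 0.57 ± 0.154 (limma adjusted p = 0.0301), while its partner Hadhb had 0.32 ± 0.135 (adjusted p = 0.126) and the electron carrier Etfa -0.32 ± 0.107 (adjusted p = 0.0633).
Peroxisomal beta-oxidation, the setting of Acot8, had medians of -0.52 in CD29hi and -0.37 in CD29lo over 11 genes. Phyh, which starts the breakdown of phytanic acid, had 7.49 and 8.66 (WT) and 7.91 and 8.77 (KO) in CD29hi, against 11.17 to 11.86 in CD29lo. CD29hi minus CD29lo was -3.22 ± 0.289 on the log2 scale (limma adjusted p = 0.000185), and in all 1 was higher and 2 were lower. Between genotypes Hsd17b4 differed by -0.36 ± 0.135 (adjusted p = 0.459) and Acaa1a by -0.53 ± 0.159 (adjusted p = 0.356), averaged over gates.

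Cardiolipin synthesis and remodelling, the pathway to which Them5 has been linked, had 16 genes tested. Its medians between genotypes were -0.13 in CD29hi and 0.08 in CD29lo, with 0 calls and a smallest adjusted p of 0.651 and 0.749 (limma). Crls1, cardiolipin synthase, lay between 10.67 and 11.02 on every array, and its averaged genotype difference was 0.12 ± 0.114 (adjusted p = 0.805). Prelid1, which moves the precursor phosphatidic acid, had -0.23 ± 0.146 (adjusted p = 0.702), and its relative Prelid3b 0.07 ± 0.159 (adjusted p = 0.926). Between gates 3 genes were higher in CD29hi, one of them Hadha, which also belongs to the mitochondrial list.

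Of the 12 PPAR and fatty acid regulated genes, Plin2, a lipid droplet coat protein, had the smallest adjusted p between genotypes, in each gate and averaged. It was at 12.16 and 12.19 (WT) against 10.0 and 10.60 (KO) in CD29hi, and at 12.12 and 12.60 (WT) against 11.51 and 11.99 (KO) in CD29lo. The difference of -1.88 ± 0.242 in CD29hi did not pass (limma adjusted p = 0.104), nor did the average of -1.24 ± 0.171 (adjusted p = 0.0692). Pdk4, a brake on glucose oxidation, was higher in CD29hi than in CD29lo by 0.86 ± 0.148 (adjusted p = 0.00438), opposite in direction to Acot1, and Plin2 was lower, at -0.82 ± 0.171 (adjusted p = 0.0108). Angptl4, a secreted inhibitor of lipoprotein lipase, had an averaged genotype difference of -0.44 ± 0.272 (adjusted p = 0.678). In all, 2 genes of the list were higher and 3 lower in CD29hi.
None of the 10 Akt kinases and regulators passed in any contrast. Their genotype medians were -0.16 in CD29hi and -0.15 in CD29lo, and Pik3ca, Pik3r1 and Rictor had averaged genotype differences of -0.16, -0.16 and 0.02.

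**Figure D5:**
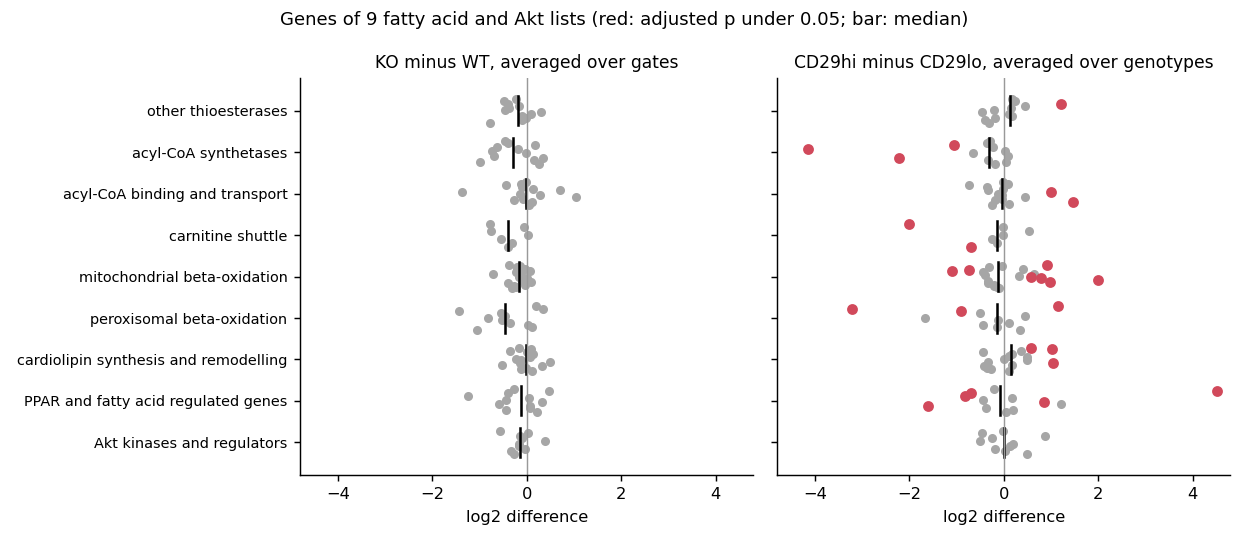
Log2 differences of the genes in 9 lists, for KO minus WT averaged over gates (left) and CD29hi minus CD29lo averaged over genotypes (right). Each point is a gene, bars are list medians and red points passed an adjusted p of 0.05. No point is red on the left, and on the right 13 genes are higher and 11 lower, with genes of several lists drawn in each.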

How the data were processed

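The deposited table holds 1 log2 value per probe set and array, with a lowest value of 0.0. That it is log2 was read from the values, which reach 14.42. How the authors scaled and summarized it is not stated in the sources used here, and no normalization was added. Per the labels' protocols, RNA was isolated with an Arcturus Pico Pure kit, amplified with a NuGEN FFPE kit and labelled as biotinylated cRNA. Of 45101 probe sets, 34958 carry 1 gene in the platform annotation of 2016, 932 several and 9211 none. By gene ID, 34754 of the first matched a RefSeq table of GRCm38, used for names and gene order.

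The probe set with the highest mean led each gene, and genes under the 25th percentile of probe set means (3.51) were not tested. limma 3.58.1 in R 4.3.3 (lmFit on 4 groups, eBayes with a trend, 4 residual and 4.31 prior degrees of freedom) gave 7 two-sided contrasts, adjusted by Benjamini-Hochberg over 14598 genes. A call is an adjusted p under 0.05. The fit was checked on simulated data. Background is the 95th percentile of 27 bacterial control probe sets per array, a choice made after the values were seen. A lower bound ("at least") sets the bright group's mean against the background of the dim group's arrays. A summed marker signal is the log2 of the sum of linear values. Precision is limited by the number of arrays. Promoter windows came from RefSeq for GRCm38.p6.

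The members, lists and tests were chosen with earlier results of these data known. Named genes are all members, Cebpb, the 3 genes of highest mean in each list, any list gene called between genotypes, the 5 genes most and the 5 least correlated with Them5, and the neighbours of Them5 and Them4. Fasn, Slc22a5, Acsbg1, Acss1, Slc27a1, Hacl1, Taz, Acox2, Mapkap1 and the markers named fall outside this rule. They were named after their values were seen. Alternatives were the 50th percentile or none as the filter, quantile normalization, the mean of probe sets, tests on each probe set, no trend, array weights, only the arrays compared, a replicate block, a random block, values raised to background and each array left out. Leaving out KO CD29lo replicate 1 and WT CD29lo replicate 2 together was added after seeing the data. Figures used matplotlib 3.10.9 in Python 3.11.15.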

Additional observations from a re-analysis of the deposited data

How the results depend on the processing

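The count of 0 members called between genotypes, in each gate and averaged, and in the interaction and the gate contrast in WT, was 0 under all alternatives, arrays left out included. The 2 members called between gates in KO became 1 with no filter, every probe set tested, array weights or only the arrays compared, 0 without a trend, and 0 without KO CD29lo replicate 1 and WT CD29lo replicate 2. Leaving out 1 array gave 0 to 2. The 2 without KO CD29lo replicate 2 were Acot1 (limma adjusted p = 0.0431) and Acot2, higher in CD29hi (0.0372), while Acot13 was lost (0.0827). Averaged over genotypes, the 2 became 1 without a trend and 1 without those 2 arrays, and 1 to 3 with 1 array left out. The third was Acot2 without KO CD29lo replicate 2 (limma adjusted p = 0.020). A lone array was assumed to vary like the other groups.

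All KO arrays are below background for Them5, so its averaged difference of -4.51 is no measured fold. It was -2.94 with the mean of probe sets, which takes in the undetected one, and -2.77 with values raised to background. Of 649 values, 20 reversed, 15 of them with a size under 0.2, and none was a call. With the mean of probe sets Acot2 became 0.017 in CD29hi, -0.10 between gates averaged and -0.25 between gates in WT. With quantile normalization Acot8 became 0.016 in CD29hi, and Acot7 0.0019 and Acot9 0.036 in CD29lo. Without both arrays Acot2 became 0.19 and Acot7 0.05 in CD29lo, while Acot8 at 0.51 and Acot9 at -0.19 kept their sign. With 1 array left out, genotype differences in CD29hi ran from -0.005 to 0.65 for Them4, -0.53 to 0.31 for Acot2, -0.14 to 0.05 for Acot8 and -0.16 to 0.22 for Acot13. In CD29lo they ran from -0.68 to 0.39 for Them4, -1.08 to 0.11 for Acot2, -0.15 to 0.06 for Acot7, -0.025 to 0.33 for Acot8 and -0.17 to 0.16 for Acot9. The cause was not tested.

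The labels speak of paired sets without saying what a replicate number marks. Deviations of same-numbered WT and KO arrays correlated at -0.017 in CD29hi and 0.281 in CD29lo. Those of same-numbered CD29hi and CD29lo arrays correlated at 0.096 in WT and -0.012 in KO. These values do not settle whether the numbers mark pairs. The main fit took the arrays as unpaired because the labels do not name pairs. The replicate block left 1 member called between gates in KO (Acot13 at an adjusted p of 0.0527, limma) and changed no other count.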
